A study of Mus musculus with 20 samples.

Results

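The genes described here are 39 genes of the interferon system of the mouse: the receptor for type I interferon, sensors of viral nucleic acid, transcription factors, antiviral effectors and the Oas family. They were taken by symbol from the authors' deposited comparison tables, and all 39 were found in both tables among 20375 genes. C57BL/6 mice had been injected into the medial prefrontal cortex with either PBS or CDS, an agent the labels do not spell out, and RNA was taken from that region; the series is titled as a model of microglia depletion. The 20 samples form 4 groups of 5. A pair of PBS and CDS groups dates from postnatal day 47, which was 5 days post injection (5 dpi). The other PBS and CDS groups date from postnatal day 84, at an age of 12 weeks and 6 weeks post injection. The labels give no genotype other than the strain, no sex, and no statement on whether animals were pooled.

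The tables give each gene's log2 fold change (CDS relative to PBS) with its q-value at each time, and nothing for single samples. Depth and expression level are therefore unknown, overlap between groups cannot be shown, and the labelled tissue cannot be checked by the level of its markers. A gene is called here where the authors' q-value was under 0.05. Each standard error (SE) and 95% interval below is implied by the authors' fold change and q-value. The p-values measure the spread between 5 samples a group, which the labels do not describe further. In bulk tissue, fewer cells of a type and less RNA per cell cannot be told apart.

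Type I interferons are secreted proteins that warn cells of infection. They bind a receptor made of the chains IFNAR1 and IFNAR2, whose kinases phosphorylate STAT2. This joins IRF9 in a complex that binds a DNA element, the interferon-stimulated response element (ISRE), and switches on a common set of antiviral genes. Brain cells keep a low tonic activity of this pathway without infection, and microglia, which are the brain's own macrophages, are among its responders.

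At 5 dpi CDS cortex held less RNA of most of these genes than PBS cortex did, while the receptor chains were not called. Of the 39 genes, 23 fell in the authors' deposited table, 59.0% of them, against 3.18% of all genes. None rose (0 of 39), against 2.75% of all genes. The median log2 fold change of the 39 was -0.82 in the authors' deposited table, against -0.02 over all genes. A total of 37 lay below 0, as did 55% of all genes, and 15 fell at least 2-fold, which 1.29% of all genes did. The 16 genes not called include 6 with an unadjusted recovered p under 0.05, all lower (29 of the 39 in all, against 10.8% of all genes). No enrichment test was made on the list, since its members were chosen with earlier results of these data known.

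**Figure D1:**
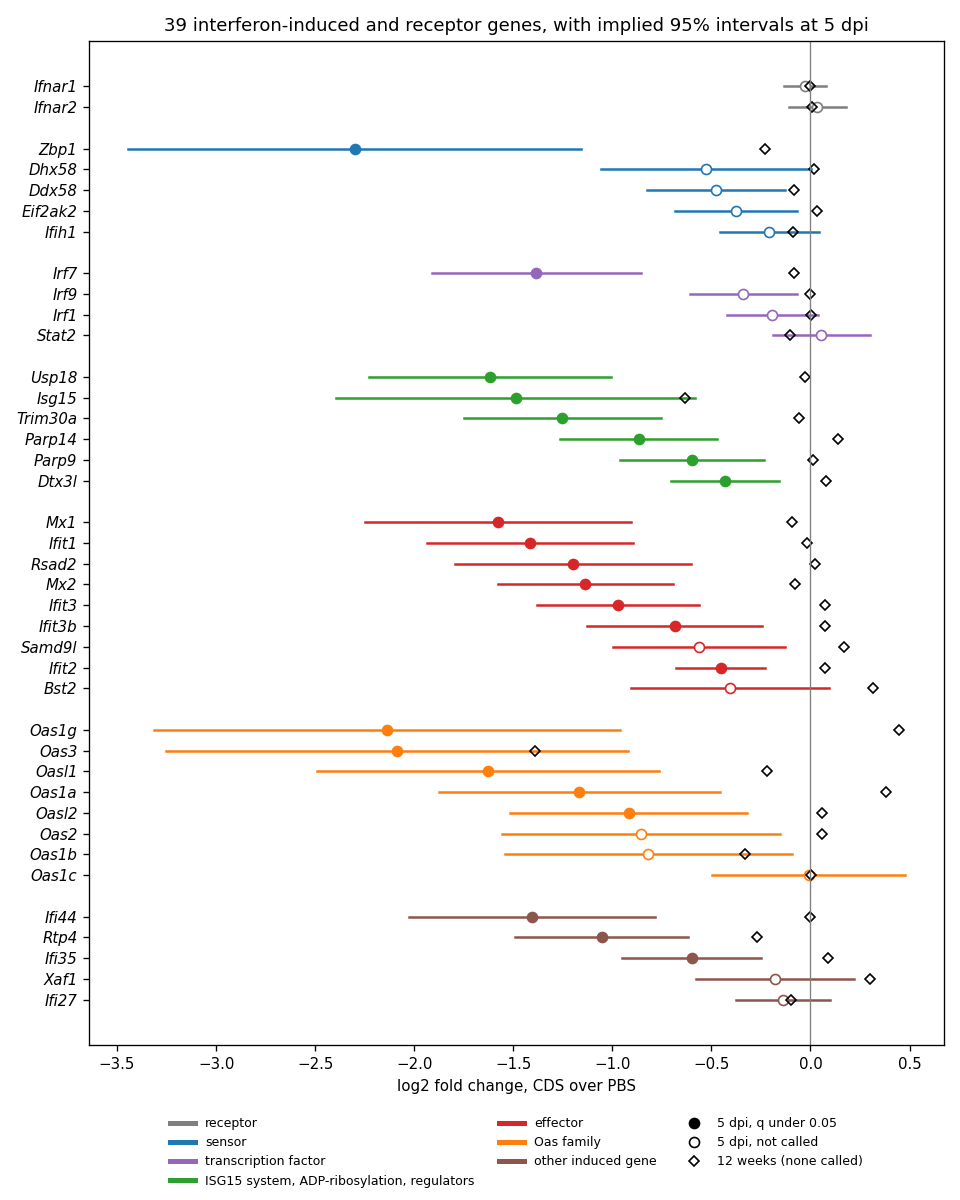
Log2 fold change of CDS over PBS for the 39 genes, grouped by role. Circles are values at 5 dpi with implied 95% intervals, filled where q was under 0.05, and diamonds are values at 12 weeks. All 23 filled circles lie left of 0, and no gene was called at 12 weeks.

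The receptor chains were the most precisely measured members and stood close to 0. Ifnar1 had a log2 fold change of -0.03 at 5 dpi (implied SE 0.05, 95% interval -0.13 to 0.08) and of 0.00 at 12 weeks in the authors' deposited tables. Ifnar2 stood at 0.03 (implied SE 0.07, interval -0.11 to 0.18) and 0.01 (the authors' deposited tables, q = 0.857 at 5 dpi). Both intervals include 0 and end short of the value of every called gene. Ifnar2 shares 9.46% of its exon bases with the read-through gene Gm21970 on the same strand, so part of its reads may be ambiguous.

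Among the transcription factors, Irf7 fell and the parts of the signalling complex did not pass the threshold. Irf7, which drives interferon production and is itself strongly induced by interferon (chromosome 7, 141262706 to 141266481, minus strand), fell 2.61-fold, at -1.38 (implied SE 0.27; q = 3.68e-05 in the authors' deposited table). Irf9, the DNA-binding part of the complex, stood at -0.34 (q = 0.133) and its partner Stat2 at 0.05 (q = 0.87) in the authors' deposited table. Irf1, strongly induced by interferon-gamma, stood at -0.19 (q = 0.373, the authors' deposited table). The implied interval of Irf7, -1.91 to -0.86, does not overlap that of Irf9, -0.61 to -0.07. The difference between the genes was not tested.

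One of the 5 sensors was called. Zbp1, which binds Z-form nucleic acid and can trigger necroptosis (chromosome 2, 173206612 to 173218923, minus strand), had the lowest value of all 39 genes, -2.30 (implied SE 0.58; q = 0.00365 in the authors' deposited table). That is a 4.93-fold fall whose implied interval runs from -3.45 to -1.16. The RNA helicases were lower by less and were not called. Ddx58, which encodes RIG-I, stood at -0.48 (q = 0.0912), Dhx58, which encodes LGP2, at -0.53 (q = 0.265) and Ifih1, which encodes MDA5, at -0.21 (q = 0.388) in the authors' deposited table. Eif2ak2, the kinase PKR that halts translation on double-stranded RNA, stood at -0.37 (q = 0.15, the authors' deposited table). All 5 sensors lay below 0, and their median in the authors' deposited table was -0.48.

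All 6 genes of the ISG15 system, ADP-ribosylation and regulation fell, and their median in the authors' deposited table was -1.06. Usp18, the protease that strips ISG15 from proteins and restrains the receptor (chromosome 6, 121245906 to 121270917, plus strand), fell 3.07-fold, at -1.62 (implied SE 0.31; q = 2.94e-05 in the authors' deposited table). Isg15, the ubiquitin-like modifier itself (chromosome 4, 156199424 to 156200818, minus strand), stood almost as low at -1.49 but with a larger implied SE, 0.46 (the authors' deposited table gave q = 0.0283). Both the modifier and its protease were thus lower in CDS. Trim30a, a regulator of Toll-like receptor signalling in the mouse, fell to -1.25 (q = 8.79e-05), and Parp14, a mono-ADP-ribosyltransferase, to -0.87 (q = 0.00111) in the authors' deposited table. The partners Parp9 and Dtx3l, which form a complex, fell by 0.60 and 0.43 (q = 0.0268 and 0.0364, the authors' deposited table). Their genes lie head to head on chromosome 16 and share 458 exon bases on opposite strands. Whether counting used strand is not given in the sources used here, so reads from that stretch may belong to either gene.

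Of 9 antiviral effectors, 7 fell, and the median of the 9 in the authors' deposited table was -0.97. Ifit1, which binds foreign RNA caps and had the smallest q of the 39 genes (chromosome 19, 34640871 to 34650009, plus strand), fell 2.66-fold, at -1.41 (implied SE 0.26; q = 1.46e-05 in the authors' deposited table). The GTPases Mx1 and Mx2 fell to -1.58 and -1.14 (q = 0.000333 and 5.83e-05, the authors' deposited table). Mx1 is known to be defective in most laboratory strains, and GENCODE lists Mx2 as a polymorphic pseudogene, so these falls concern transcripts. Rsad2, which encodes viperin, fell to -1.20 (q = 0.00352, the authors' deposited table). Ifit2 fell by less, to -0.45, but with a small implied SE, 0.12 (the authors' deposited table gave q = 0.00382). Bst2, the tetherin that holds budding virus on the cell, stood at -0.41 (q = 0.395) and the antiviral and growth-restraining Samd9l at -0.56 (q = 0.115) in the authors' deposited table.

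Ifit3 and Ifit3b lie next to each other on chromosome 19 and are near copies, so their separate values are uncertain. Ifit3 fell to -0.97 (implied SE 0.21, q = 0.000292) and Ifit3b to -0.69 (0.22, q = 0.0418) in the authors' deposited table. Their coding sequences, of 1209 bases each in GENCODE M21 (GRCm38), differ at 11 bases, with a longest identical run of 329 bases. Of the 50-base stretches of Ifit3 transcripts, 51.2% occur in another gene, all of them in Ifit3b. The stretch of 120 coding bases with the most differences shows how little separates them, with differing bases in capitals (coding bases 169 to 288).
Ifit3: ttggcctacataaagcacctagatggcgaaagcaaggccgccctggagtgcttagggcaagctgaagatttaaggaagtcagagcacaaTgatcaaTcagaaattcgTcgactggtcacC
Ifit3b: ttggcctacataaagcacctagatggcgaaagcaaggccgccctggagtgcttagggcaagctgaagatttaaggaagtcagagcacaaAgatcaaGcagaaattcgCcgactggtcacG
Within the coding sequence, only reads that cross one of the 11 positions tell the genes apart.

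The active enzymes of the Oas family make oligoadenylates from ATP when they meet double-stranded RNA, and these activate RNase L, which degrades RNA. All 8 family members lie on chromosome 5, and 5 of them fell; the family's median in the authors' deposited table was -1.04. Oas1g (120876142 to 120887613, minus strand) stood at -2.14 (implied SE 0.60; q = 0.012 in the authors' deposited table). Oas3 (120753098 to 120777661, minus strand) stood close to it at -2.09 (implied SE 0.59; q = 0.0138 in the authors' deposited table). Both fell over 4-fold, by 4.39 and 4.25-fold, but their intervals are wide: -3.31 to -0.96 and -3.25 to -0.92. Oasl1, which in the mouse restrains translation of IRF7, fell to -1.63 (implied SE 0.44, q = 0.00792), Oas1a to -1.17 (0.36, q = 0.0276) and Oasl2 to -0.92 (0.31, q = 0.0466) in the authors' deposited table. Oas2 and Oas1b stood at -0.86 and -0.82, similar in size to Oasl2, and were not called (q = 0.147 and 0.191, the authors' deposited table). Oas1c stood at -0.01 with an implied interval of -0.49 to 0.48 (q = 0.992, the authors' deposited table). It was the member of the family nearest to 0, and its interval does not reach the value of any of the 5 called members.

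Oas1a and Oas1g share much of their sequence, so reads can match both. Their coding sequences, of 1101 bases each, differ at 36 bases (96.7% identical) and have a longest identical run of 231 bases. Of the 50-base stretches of Oas1a transcripts, 57.6% occur in Oas1g, and 45.2% of those of Oas1g occur in Oas1a. The first 120 coding bases are the same in both genes.
Oas1a and Oas1g, coding bases 1 to 120: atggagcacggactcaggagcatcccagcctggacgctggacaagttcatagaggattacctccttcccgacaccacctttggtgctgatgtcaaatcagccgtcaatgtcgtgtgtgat
The differences are gathered in other stretches, such as coding bases 408 to 527, which hold 17 of the 36 (capitals).
Oas1a: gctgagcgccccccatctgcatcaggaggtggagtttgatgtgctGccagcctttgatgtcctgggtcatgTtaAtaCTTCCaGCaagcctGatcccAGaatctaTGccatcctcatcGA
Oas1g: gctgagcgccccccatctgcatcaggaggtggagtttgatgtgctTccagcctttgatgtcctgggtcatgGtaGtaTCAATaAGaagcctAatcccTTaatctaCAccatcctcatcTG
The values of these genes, -1.17 and -2.14, therefore depend on how the authors' counting treated reads that match both, which is not given in the sources used here. Other members of the family are more distinct: Oas1a aligned to Oas1b at 82.9% and to Oas1c at 76.5% identity, and at most 9.82% of 50-base stretches of Oas1b, Oas1c, Oas2, Oas3, Oasl1 or Oasl2 occur elsewhere. Oas1b, known as the flavivirus resistance gene, is listed by GENCODE as a polymorphic pseudogene, with a longest coding sequence of 753 bases. Without the 4 genes that share at least 20% of their stretches, 19 of 35 genes were called lower at 5 dpi, against 3.18% of all genes.

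**Figure D2:**
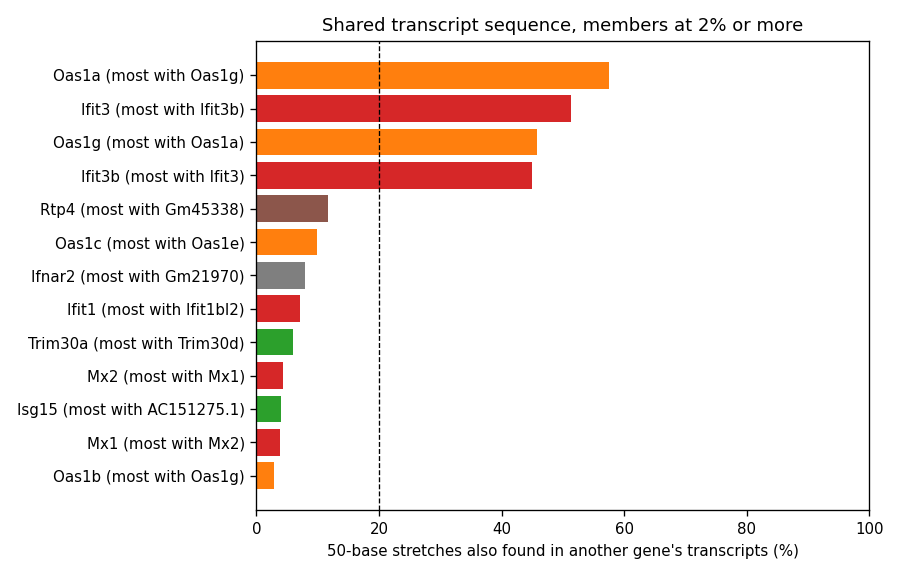
Share of each gene's 50-base transcript stretches that also occur in transcripts of another gene (GENCODE M21), for the 13 members at 2% or more; colours mark roles as in the plot of fold changes by role, and the dashed line marks 20%. Oas1a, Ifit3, Oas1g and Ifit3b stand at 45.0% or above, and the others shown at 11.6% or below.

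Among 5 other induced genes, Ifi44 fell to -1.41 (q = 0.000647), Rtp4, a chaperone of receptors on their way to the membrane, to -1.05 (q = 0.000209) and Ifi35 to -0.60 (q = 0.02) in the authors' deposited table. Ifi27 and Xaf1 stood at -0.14 and -0.18 and were not called (q = 0.573 and 0.693, the authors' deposited table). Ifi35 shares 16.8% of its exon bases with the antisense gene Gm11626, and Rtp4 shares 13.9% with Gm45338 on the same strand.

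Many members carry an ISRE core in their promoter, whether they were called or not. Promoter windows of 250 bases before to 50 after the start site (RefSeq, GRCm38.p6) were matched for 28 of the 39 genes. The core searched was GAAA, any 2 bases and GAAA again, which reads TTTC, any 2 bases and TTTC on the other strand; both were searched, and overlapping matches were each counted. It was present for 15 of the 28 genes, against 3.99% of all 27025 genes with a window. It was present for 9 of the 16 called genes and for 6 of the 12 not called. A GAS core, TTCNNNGAA on either strand (it reads the same on both), the element of interferon-gamma signalling, was present for 8 of 28 members and for 9.55% of all genes. The 4 called genes with an ISRE core and the smallest q are shown because they fell together and carry the element, with the core in capitals, on the gene's strand.
Ifit1 (chr19:34640639-34640938, plus strand): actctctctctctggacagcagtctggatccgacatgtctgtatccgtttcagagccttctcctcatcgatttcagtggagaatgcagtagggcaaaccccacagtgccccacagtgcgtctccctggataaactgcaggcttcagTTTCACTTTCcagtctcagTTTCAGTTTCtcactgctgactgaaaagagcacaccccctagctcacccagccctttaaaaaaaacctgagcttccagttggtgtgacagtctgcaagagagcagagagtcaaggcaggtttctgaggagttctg
Trim30a (chr7:104465144-104465443, minus strand): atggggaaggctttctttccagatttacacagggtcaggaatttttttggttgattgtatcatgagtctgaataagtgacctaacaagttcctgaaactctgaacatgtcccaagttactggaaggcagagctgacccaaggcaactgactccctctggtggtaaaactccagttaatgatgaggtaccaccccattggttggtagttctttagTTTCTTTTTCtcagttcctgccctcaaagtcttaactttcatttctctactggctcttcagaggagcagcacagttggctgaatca
Ifit3 (chr19:34583279-34583578, plus strand): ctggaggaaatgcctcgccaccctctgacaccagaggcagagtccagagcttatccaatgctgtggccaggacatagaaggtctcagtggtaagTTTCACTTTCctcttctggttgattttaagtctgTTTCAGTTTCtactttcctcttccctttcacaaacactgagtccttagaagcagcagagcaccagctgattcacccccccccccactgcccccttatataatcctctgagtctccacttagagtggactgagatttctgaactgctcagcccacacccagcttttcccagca
Rsad2 (chr12:26456403-26456702, minus strand): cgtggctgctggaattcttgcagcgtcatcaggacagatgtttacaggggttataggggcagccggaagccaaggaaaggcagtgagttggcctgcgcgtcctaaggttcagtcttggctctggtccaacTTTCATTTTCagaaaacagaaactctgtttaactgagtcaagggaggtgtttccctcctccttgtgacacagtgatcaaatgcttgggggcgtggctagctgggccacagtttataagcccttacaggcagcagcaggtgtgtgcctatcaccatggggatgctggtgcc
Ifit1 and Ifit3 hold 2 separate cores each, Trim30a and Rsad2 hold 1 each. Isg15 holds 3 overlapping cores from base -78 to -66, and the near copies Oas1a and Oas1g hold 2 overlapping cores within 20 bases of the start site. Oas1c, which stood at -0.01 in the authors' deposited table, holds 2 as well. Irf7 and Oasl1, which fell, hold none in this window. The match is a description of letters and does not show binding.

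**Figure D3:**
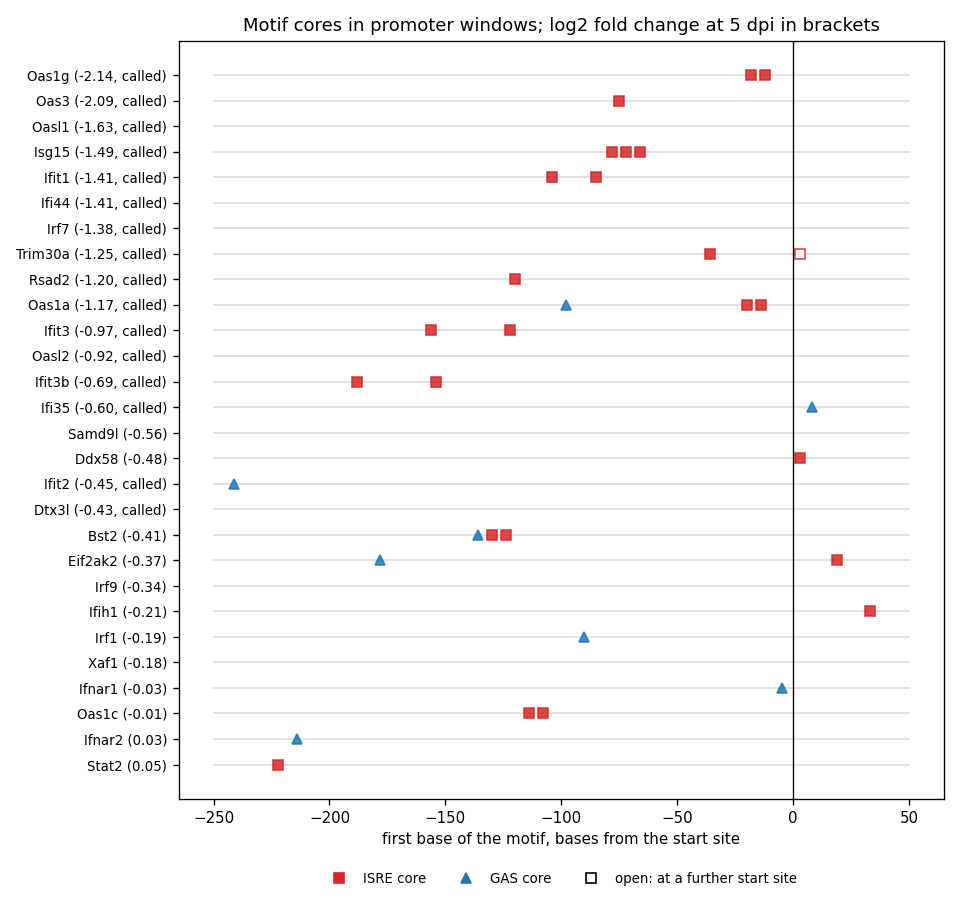
Position of ISRE cores (squares) and GAS cores (triangles) in the promoter windows of 28 members, in bases from the start site, with genes ordered by their log2 fold change at 5 dpi (in brackets). ISRE cores appear in 9 of 16 called and 6 of 12 uncalled genes, and GAS cores in 3 of 16 called and 5 of 12 uncalled genes.

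Some of the other genes of the pathway were lower too. For comparison with each list, 3.18% of all genes fell and 2.75% rose at 5 dpi. Of 51 further type I interferon-induced genes listed, 43 were found. Of these 43, 11 fell (25.6%) and 0 rose, and the median in the authors' deposited table was -0.27. The smallest q-values belonged to Slfn8 (-2.02), Uba7, the enzyme that activates ISG15 (-1.03), the helicase gene Ddx60 (-1.38) and Trim30d (-1.15), whose q in the authors' deposited table ran from 3.97e-10 to 0.000119. Of 23 interferon-gamma-induced GTPases and antigen processing genes, 6 fell and 0 rose, with a median of -0.53, led by Gbp9 (-0.88), Tgtp2 (-1.72), Gbp11 (-1.33) and Irgm2 (-0.76) in the authors' deposited table. Several of these families hold near copies whose separate values are uncertain. A list of 19 genes covers nucleic acid sensing upstream of interferon and is not limited to sensors. Its median was -0.17 in the authors' deposited table, and the sensors Tlr3, Tlr9 and Cgas were not called. Of the 19 genes, 6 fell (31.6%) and 0 rose. They include the endosomal RNA receptor Tlr7 (-1.13), the nucleotide hydrolase Samhd1 (-0.42), the myeloid transcription factor Irf8 (-0.89) and Tmem173, which encodes STING (-0.84), with q between 4.45e-05 and 0.0017 in the authors' deposited table. Of 10 other receptor and JAK-STAT genes, Ifngr1, a chain of the interferon-gamma receptor, alone was called, at -0.43 (q = 0.00131, the authors' deposited table). None of the 21 interferon ligand genes listed was found by symbol in the authors' deposited tables, so their RNA could not be compared.

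Markers of several cell types moved at the same time. All 16 homeostatic microglia markers fell at 5 dpi, from -2.82 for Slc2a5 to -0.50 for Aif1, and their median in the authors' deposited table was -1.54. Of the 23 called interferon-system genes, all but Ifit2 and Dtx3l lie within that range. The range is wide, and the share of all called lower genes within it was not counted. Of the 647 genes called lower, 391 fell at least 1.5-fold, and of the 23 called interferon-system genes 21 did. Of 14 blood leukocyte markers listed, 7 were found. Ccr2 and Itgal rose, to 1.26 and 1.58, and the pan-leukocyte gene Ptprc fell to -0.52 in the authors' deposited table. The other 4 were not called. The median of the 7 in the authors' deposited table was -0.33, with 4 below 0. All 5 oligodendrocyte precursor markers fell (median -3.28), and of 5 astrocyte markers Gfap alone rose (q = 0.000134), per the authors' deposited table. None of 7 endothelium markers was called, and their median was -0.04 (the authors' deposited table; 1 had an unadjusted recovered p under 0.05). Of 6 cortical neuron markers, Neurod2 rose to 0.39 and Gad1 fell to -0.35 in the authors' deposited table. The part of these changes in the falls of the interferon-induced genes was not tested.

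**Figure D4:**
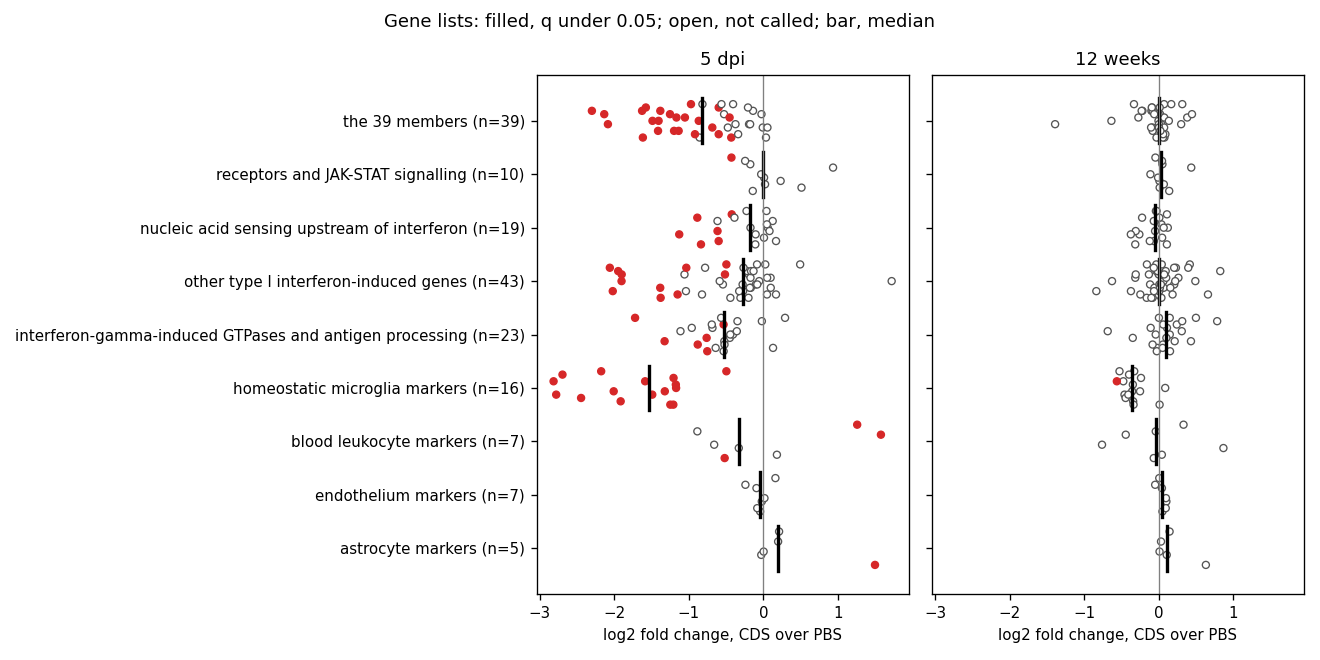
Log2 fold change of CDS over PBS for the members and other gene lists at 5 dpi (left) and 12 weeks (right). The oligodendrocyte precursor markers (median -3.28 at 5 dpi) and the cortical neuron markers are not shown. Each point is a gene, filled where q was under 0.05, and bars are medians. At 5 dpi the members' median of -0.82 lies between those of the microglia markers (-1.54) and of the other type I interferon-induced genes (-0.27).

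At 12 weeks none of the 39 genes was called, where 0.191% of all genes were, and their values were spread around 0. The table has no gene-level p for them: all shared the highest q with 20103 genes, which means that the p of each was at least 0.0134. The count at an unadjusted p under 0.05 can therefore not be given. The median was 0.00 in the authors' deposited table, with 19 genes below 0, as 51% of all genes were, and 20 above. Irf7 stood at -0.08, Usp18 at -0.03, Ifit1 at -0.02, Mx1 at -0.09, Rsad2 at 0.02 and Zbp1 at -0.23 in the authors' deposited table. Genes with large falls at 5 dpi thus had 12-week values on both sides of 0. The exceptions in size were Oas3, at -1.39, and Isg15, at -0.63 (the authors' deposited table). The tied q allows no implied SE below 0.56 for Oas3 and 0.26 for Isg15. Oas1g and Oas1a, which share sequence, stood at 0.45 and 0.38, the highest values of the 39 in the authors' deposited table. The microglia markers still had a median of -0.35 with 14 of 16 below 0, and Slc2a5 alone of them was called, at -0.56 (q = 0.00592, the authors' deposited table). All 5 oligodendrocyte precursor markers were called lower at that age, from -1.56 for Neu4 to -0.68 for Cspg4 in the authors' deposited table.

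**Figure D5:**
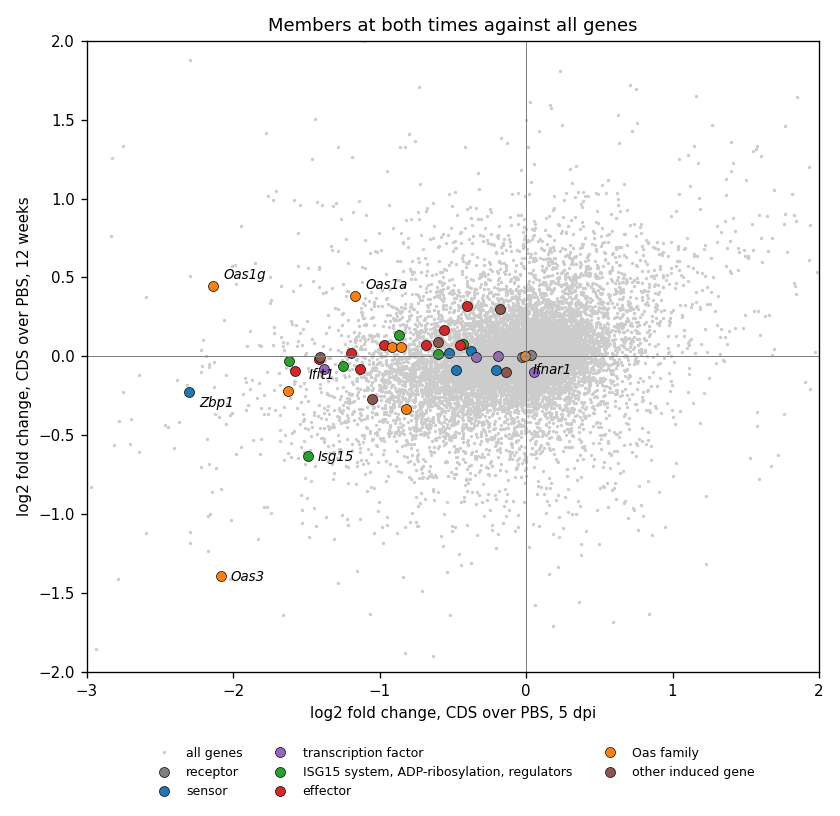
Log2 fold change at 5 dpi (horizontal) against that at 12 weeks (vertical) for the members, coloured by role, over all genes (grey; 52 genes lie outside the axes). The members spread to the left along the horizontal line at 0, with Oas3 at -1.39 and Isg15 at -0.63 below it.

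A call at 5 dpi and none at 12 weeks does not show that the effects differ, so the difference was tested. The log2 fold change at 12 weeks minus that at 5 dpi was divided by its implied error, with Benjamini-Hochberg adjustment over all genes; the error at 12 weeks was taken from 5 dpi, since it could not be recovered. Ifit1 was the 1 member past the threshold, with a difference of 1.40 (implied SE 0.37, adjusted p = 0.0474), where 0.348% of all genes passed in that direction. This call ended with the 12-week error multiplied by 1.5 and under Bonferroni adjustment (0 members each). Usp18 and Ifit3 came next, at 1.59 and 1.04 (adjusted p = 0.0668 and 0.0784), followed by Parp14 (adjusted p = 0.0802). Before adjustment, 23 of the 39 genes had a p under 0.05, all with a higher value at 12 weeks, against 4.37% of all genes. For Oas3 the difference was 0.70 with an implied SE of 0.84 (adjusted p = 0.924), and for Isg15 and most other members these data do not show whether the effect changed. Among the 43 other type I interferon-induced genes the difference passed for Slfn8, Uba7, Ddx60 and Ifi204, all higher at 12 weeks. Of the other lists it passed for Samhd1, for 13 of the 16 microglia markers and for 4 of the 5 oligodendrocyte precursor markers, also higher at 12 weeks, and for the leukocyte marker Itgal, which was lower at 12 weeks (a difference of -2.02, adjusted p = 0.0387).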

How the data were processed

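RNA was extracted from frozen medial prefrontal cortex, and stranded libraries were made from 400 ng after ribosomal RNA removal, per the labels' protocols. STAR, featureCounts and DESeq2 and the build GRCm38.p5 are named in the submitters' processing notes, with no versions. For each time the authors deposited a log2 fold change (CDS against PBS) with a q-value for every gene, per the file headers. Shrinkage, covariates, strand handling and filters: not given in the sources used here. Columns with values of single samples numbered 0.

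The members and gene lists were chosen with earlier results of these data known. Every list gene past the threshold was eligible to be named, by smallest q (up to 4 a list); all members are named, and any other gene was picked with its values in view. Calls within each time are the authors' own q-values; the difference between times is a new test. The deposited q-values were taken as Benjamini-Hochberg adjusted over 20375 genes, p is then q multiplied by its rank and divided by that number, and the implied SE is the log2 fold change over the normal z of p. If the fold changes were shrunken, the implied SE is not that of the fit. Recovered p-values were uncertain by at most 1.04-fold at 5 dpi. At 12 weeks p was recovered for 272 genes, none of them a member. The difference between times used a two-sided z with the larger of the 5 dpi SE and the smallest the tied q allows. Recovery and difference were tested on simulated data. Each simulated gene had the same error at both times, and its 12-week effect was scaled from its 5 dpi fold change. The simulation therefore could not test whether the members' errors were equal at both times. Positions, overlaps and shared 50-base stretches (sense strand) came from GENCODE M21; promoters came from RefSeq. Python 3.11.15, scipy 1.17.1 and Biopython 1.88 were used.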

Additional observations from a re-analysis of the deposited data

Results flagged for a closer look

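Ifit1 differed between times by a test of the difference itself: its log2 fold change was 1.40 higher at 12 weeks than at 5 dpi (implied SE 0.37, adjusted p = 0.0474 over all genes). It stood at -1.41 at 5 dpi and -0.02 at 12 weeks in the authors' deposited tables. The call assumes that the error at 12 weeks, which could not be recovered, equals that at 5 dpi, and it ended (0 members) with that error multiplied by 1.5, under Bonferroni adjustment and at an adjusted p under 0.01.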

How the results depend on the processing

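At 5 dpi the count of 23 lower genes was 14 at q under 0.01 (1.61% of all genes), 24 at q under 0.1 (4.66%), 21 with a fold of at least 1.5 (1.92%) and 6 under Bonferroni adjustment (0.736%); 0 rose under any of these. Adjusted over protein-coding genes alone it was 22 of 37, since Mx2 and Oas1b are not in that class. At 12 weeks 0 were called under each of these alternatives. The median at 5 dpi was -0.82 centred on protein-coding genes, -0.60 without genes of shared sequence and -0.86 as a mean. The single difference between times became 0 with the 12-week error times 1.5, 0 under Bonferroni adjustment and 0 at an adjusted p under 0.01; restricting it to genes whose error was recovered at both times gave no value, since no member has one. No paired analysis was possible because the deposited tables give comparisons, not samples, and for the same reason no sample could be left out.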

Other observations

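The values of 4 other interferon-induced genes outside the 39 are given here; all were picked after their values were seen. Ifi27l2a stood at -1.04 at 5 dpi and -0.84 at 12 weeks, not called at either time (the authors' deposited tables, q = 0.131 at 5 dpi). Ifi204, a nuclear DNA-binding protein of the interferon-induced PYHIN family, fell to -1.95 at 5 dpi and stood at 0.83 at 12 weeks in the authors' deposited tables, a difference that passed the test (adjusted p = 0.00318). As for Ifit1, the error of Ifi204 at 12 weeks could not be recovered and was taken from 5 dpi. The check with that error multiplied by 1.5 counted members alone. Ifitm3 and Cmpk2 stood at 0.10 and 0.03 at 5 dpi (the authors' deposited table, q = 0.874 and 0.909).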
